A study of Mus musculus with 2 samples.

Results

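The genes that carry the T-cell receptor (TCR) signal from phospholipase C gamma to calcium, protein kinase C and NFAT were followed in CD4 and CD8 positive (DP) thymocytes. The members were the 10 rows of the deposited table with the symbols *Plcg1*, *Rasgrp1*, *Prkcq*, *Itpr1*, *Stim1*, *Orai1*, *Ppp3ca*, *Nfatc1*, *Nfatc2* and *Nfatc3*, chosen for their role in this pathway, of 21041 genes listed. The mRNA-seq data held 1 library of WT mice and 1 library of *Cxxc1*-deficient mice. By the methods, WT mice were *Cxxc1* fl/fl and *Cxxc1*-deficient mice were *Cxxc1* fl/fl h*CD2*-Cre. The genotype label of the deficient sample reads *Cxxc1*+/-, and the library was grouped by its title. In the *Cxxc1*-deficient mice, the Cre transgene driven by h*CD2* acts from an early thymocyte stage and also in other immune cells, and exons of the floxed gene are removed. Both genotypes carry the floxed allele. By the methods, mice were a few weeks old unless stated otherwise, and the labels give neither the age nor the sex or number of mice behind each library. Since fewer cells of a type and less RNA per cell cannot be told apart in such samples, every difference is between these libraries, and since each genotype has 1 library, the spread between mice is unknown and p-values are left out.

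A TCR that meets its ligand activates phospholipase C gamma, which cuts a membrane lipid into diacylglycerol and inositol trisphosphate (IP3). Diacylglycerol recruits RasGRP1, which activates Ras, and protein kinase C theta. IP3 opens calcium channels of the endoplasmic reticulum, the loss of calcium there is sensed by STIM proteins, and these open ORAI channels of the plasma membrane. Calcium and calmodulin then activate the phosphatase calcineurin, which dephosphorylates NFAT transcription factors so that they enter the nucleus. In the thymus this pathway acts in the selection of DP cells. CXXC1 binds unmethylated CpG through its CXXC domain and is part of the SETD1 complex, which trimethylates H3K4 at promoters.

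Because CXXC1 recognises CpG, promoter windows are shown with each CpG in capitals. They are those of the members with the largest differences as deposited, and of an NFAT gene with none. The windows run from 250 bases before to 50 bases after a RefSeq start on GRCm38.p6, a later build than the mm9 of the expression data, and are written 5′ to 3′ on the strand of the gene.
Rasgrp1, chr2:117342828-117343127, minus strand: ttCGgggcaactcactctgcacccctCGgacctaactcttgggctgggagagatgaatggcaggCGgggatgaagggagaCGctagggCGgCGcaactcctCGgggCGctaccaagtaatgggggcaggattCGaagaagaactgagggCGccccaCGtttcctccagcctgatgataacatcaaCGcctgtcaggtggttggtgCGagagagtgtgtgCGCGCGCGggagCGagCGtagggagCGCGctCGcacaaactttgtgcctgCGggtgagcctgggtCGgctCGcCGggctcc
Prkcq, chr2:11172132-11172431, plus strand: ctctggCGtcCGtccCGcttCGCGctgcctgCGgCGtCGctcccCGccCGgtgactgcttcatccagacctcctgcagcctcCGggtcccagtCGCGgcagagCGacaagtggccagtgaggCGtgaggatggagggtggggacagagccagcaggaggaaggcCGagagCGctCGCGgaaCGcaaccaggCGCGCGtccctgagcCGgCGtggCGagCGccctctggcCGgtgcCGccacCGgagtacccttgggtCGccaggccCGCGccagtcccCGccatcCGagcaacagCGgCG
Nfatc3 downstream start, chr8:106059340-106059639, plus strand: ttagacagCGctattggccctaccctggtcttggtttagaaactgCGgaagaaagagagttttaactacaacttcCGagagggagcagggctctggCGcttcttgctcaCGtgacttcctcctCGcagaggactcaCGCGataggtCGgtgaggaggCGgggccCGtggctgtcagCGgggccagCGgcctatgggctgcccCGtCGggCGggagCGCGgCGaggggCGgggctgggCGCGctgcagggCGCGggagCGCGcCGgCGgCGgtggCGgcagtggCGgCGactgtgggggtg
Nfatc3 upstream start, chr8:106058568-106058867, plus strand: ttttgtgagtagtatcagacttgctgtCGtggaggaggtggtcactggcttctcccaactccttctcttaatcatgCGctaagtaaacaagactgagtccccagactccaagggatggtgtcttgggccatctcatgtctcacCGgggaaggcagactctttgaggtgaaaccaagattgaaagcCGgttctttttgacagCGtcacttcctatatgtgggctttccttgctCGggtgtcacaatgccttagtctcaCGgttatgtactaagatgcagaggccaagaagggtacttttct
Nfatc2 upstream start, chr2:168601608-168601907, minus strand: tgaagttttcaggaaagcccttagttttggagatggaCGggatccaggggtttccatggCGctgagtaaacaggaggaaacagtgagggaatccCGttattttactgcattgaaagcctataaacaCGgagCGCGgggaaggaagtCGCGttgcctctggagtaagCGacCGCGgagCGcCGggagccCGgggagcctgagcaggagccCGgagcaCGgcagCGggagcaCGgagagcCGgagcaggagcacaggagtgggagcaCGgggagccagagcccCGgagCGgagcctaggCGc
Nfatc2 downstream start, chr2:168590316-168590615, minus strand: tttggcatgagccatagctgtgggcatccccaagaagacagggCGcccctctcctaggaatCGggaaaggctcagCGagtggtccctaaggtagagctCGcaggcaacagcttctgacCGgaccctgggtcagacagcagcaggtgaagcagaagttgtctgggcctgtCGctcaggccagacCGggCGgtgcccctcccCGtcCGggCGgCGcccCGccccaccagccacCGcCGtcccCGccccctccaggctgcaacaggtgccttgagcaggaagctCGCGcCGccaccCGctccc
Of the 10 members, 7 had a window in the RefSeq table, with 9 windows in all. *Itpr1*, *Ppp3ca* and *Nfatc1* had none. The dinucleotide CG was found in 94.6% of all 32851 windows of 300 bases in the table, with a median of 7 per window. At least 20 CpG were present in 8 of the 9 windows of the members, against 26.5% of all windows. *Rasgrp1* had 26 CpG and *Prkcq* had 37. The upstream start of *Nfatc3* had 7 and its downstream start had 32, whereas the starts of *Nfatc2* had 23 and 20. *Plcg1* had 27, *Orai1* 36 and *Stim1* 38 CpG. As deposited, CpG-rich windows were thus found in members with a lower value in *Cxxc1*-deficient cells and in *Orai1* and *Nfatc2*, with an equal value. These equal values were low and depend on how the libraries are scaled (below), so a relation of CpG number to the ratio could not be read. By the paper, CXXC1 binding showed enrichment at CpG island centres and accumulation at transcription starts. Still, only a small share of the CXXC1-binding sites of DP thymocytes coincided with CpG islands. The paper also reports that CXXC1 with a mutation that abolishes DNA binding could still convert DN to DP cells. Binding of CXXC1 to these windows was not tested. The core of the NFAT site, searched as GGAAA on both strands (TTTCC on the other), was found in 4 of the 9 windows, against 61.3% of all windows.

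The deposited values are normalized expression values per gene, rounded to whole numbers, whose unit and relation to transcript length are not stated. Levels of different genes were therefore set beside each other only to place a gene in a band of values or against a background level, and neither accounts for transcript length. They sum to 1551994 in WT, against 981677 in *Cxxc1*-deficient cells. The median value was 36 in each library, and the number of reads behind them is unknown. The targeted gene, *Cxxc1*, had 91 in WT, against 50 in *Cxxc1*-deficient cells, values of the gene as a whole and not of the deleted exons. The value of 50 was reached there by 135 of 1122 olfactory receptor genes, which thymocytes are not known to use, so it does not show a level of its own, whereas none of them reached 91 in WT. Among 15 Y-linked genes, 0 had a value above 0 in WT, against 7 in *Cxxc1*-deficient cells, with up to 67. *Xist*, which is expressed in female cells, had 2419 in WT, against 1021 in *Cxxc1*-deficient cells. All 10 DP markers lay above the olfactory receptor genes in both libraries, from 1085 to 20778 in WT and from 172 to 5058 in *Cxxc1*-deficient cells, and 9 were at least 2-fold lower in the latter. The summed values of markers of other cells in WT and *Cxxc1*-deficient cells were 252 and 219 for 8 B-cell markers, 384 and 337 for 10 myeloid markers, 316 and 254 for 9 markers of epithelium and stroma, 315 and 268 for 7 NK and innate lymphoid markers, 547 and 384 for 6 mature SP markers and 104 and 129 for 7 erythroid markers, of which *Hba-a1*, *Hba-a2* and *Hbb-b2* were at 0 in both. The 6 markers of the earlier DN stage summed to 260 and 399, with *Il2ra* at 63 in WT, against 207 in *Cxxc1*-deficient cells. The higher sum rested on *Il2ra*. The others were *Kit* with 35 and 36, *Erg* with 47 and 36, *Lmo2* with 27 and 40, *Hhex* with 14 and 16 and *Bcl11a* with 74 and 64. Each of these other values was reached by some olfactory receptor genes. The part of DN cells and of a different mix of sexes in the values below was not tested.

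As this background level, the 1122 olfactory receptor genes had a median of 22 in WT, against 24 in *Cxxc1*-deficient cells, and reached 81 and 95. Ratios of *Cxxc1*-deficient to WT values were taken with a floor of 1 under each value. They depended on level. The median log2 ratio was 0 over the 11523 genes with a mean of both libraries from 20 to 50, -0.53 over the 3657 from 50 to 100, -1 over the 1605 from 100 to 200, -1.22 over the 703 from 200 to 500, -1.56 over the 125 from 500 to 1000 and -1.81 over the 39 of at least 1000. Each member is therefore set beside the genes of its own band of mean value, an order that a factor on a whole library does not change while the bands are kept as deposited.

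The members had a lower value in *Cxxc1*-deficient than in WT DP thymocytes for 8 of 10 genes, an equal value for *Orai1* and *Nfatc2* and a higher value for none, where 59.9% of all 20125 genes above 0 in at least 1 library were lower. At least 2-fold lower were 3 of the 10, *Rasgrp1*, *Prkcq* and *Nfatc3*, and 0 were at least 2-fold higher. The share of all genes at least 2-fold lower was 17.4%, and 5.89% were at least 2-fold higher. Among the bands in which these 3 members lie, it was 83.2% (500 to 1000, *Rasgrp1*), 50.1% (100 to 200, *Prkcq*) and 87.2% (at least 1000, *Nfatc3*), so that a 2-fold lower value was the common one at their levels. The median log2 ratio of the 10 members was -0.81, beside -0.20 over all genes and -1.08 over the 2472 genes whose mean was at least 100. Relative to the median of each gene's own band, 6 members were higher, 3 were lower and 1 was equal, with a median difference of 0.11 on the log2 scale.

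These directions depended on how the libraries were scaled to each other. With the same 75th percentile, 6 members were lower and 4 higher, and with the same median over genes whose mean was at least 100, 3 were lower and 7 higher. The median log2 ratio over all genes shifted by 0.39 and 1 with them. Equal sums shifted it by 0.66, and equal sums without the 100 highest genes by 0.56, with 6 members lower and 4 higher under each. Of all genes past 2-fold, 74.7% were lower as deposited, 42.3% with the same 75th percentile, 27.2% with equal sums without the 100 highest genes, 20.7% with equal sums and 8.23% with the same median over genes whose mean was at least 100. Under all 5 scalings, *Rasgrp1*, *Prkcq* and *Nfatc3* stayed lower in *Cxxc1*-deficient cells, but not by 2-fold under each. With the same 75th percentile their log2 ratios were -1.05, -0.72 and -0.73, so that *Rasgrp1* alone remained at least 2-fold lower, where 8.76% of all genes were. None of the 3 did with equal sums. With the same median over genes whose mean was at least 100, *Rasgrp1* had -0.44, and *Prkcq* and *Nfatc3*, with -0.11 and -0.12, were close to 0.

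**Figure D1:**
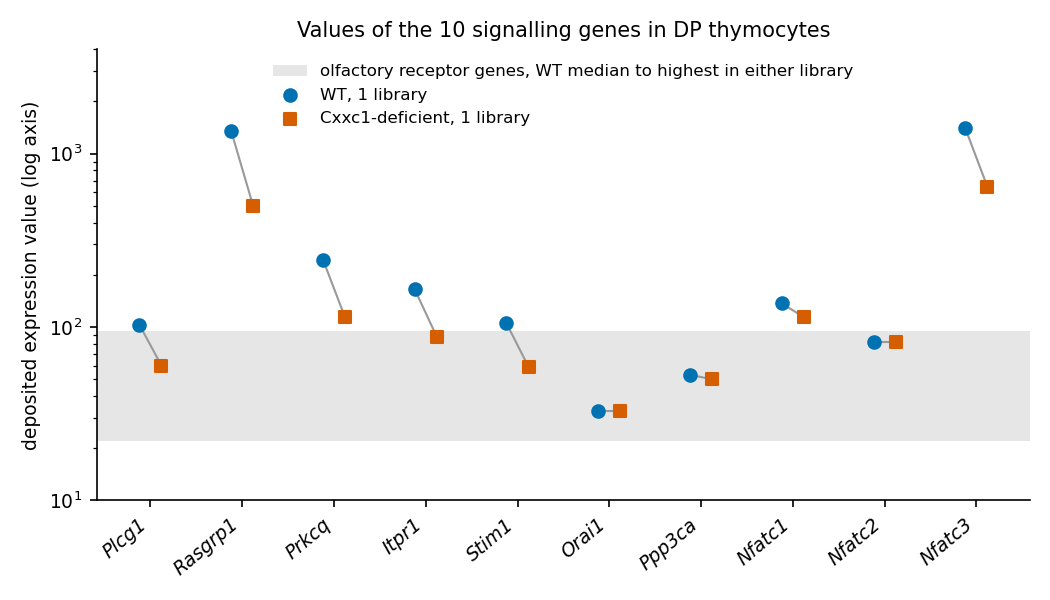
Deposited expression value (log axis) of the 10 genes in the WT library (circles) and the Cxxc1-deficient library (squares), 1 library each, with the range from the WT median (22) to the highest value (95) of olfactory receptor genes in grey. Rasgrp1, Prkcq, Nfatc1 and Nfatc3 lie above the grey range in both libraries, and Orai1, Ppp3ca and Nfatc2 lie within it in both. The order of WT and Cxxc1-deficient values is as deposited and for 5 of the 8 lower genes reverses under at least 1 scaling.

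*Plcg1* encodes phospholipase C gamma 1, the enzyme that makes both messengers. On mm9 it lies on the plus strand of chromosome 2 from 160557036 to 160601496 (positions of members come from the GENCODE vM1 annotation of NCBIM37, which is the mm9 build). Its value was 103 in WT, against 60 in *Cxxc1*-deficient cells. The WT value lay above all 1122 olfactory receptor genes, whereas 51 of them reached at least 60 in *Cxxc1*-deficient cells. The ratio was 0.583, a log2 ratio of -0.78, and 1181 of the 3657 genes of its band had a lower ratio. *Plcg1* was thus on the lower side of its band, within its quartiles of -0.90 and -0.16. The ratio turned to a higher value (log2 0.22) with the same median over genes whose mean was at least 100. Its exons share 321 bases with *Zhx3* on the other strand, which had 102 and 80, and whether the authors counted by strand is not given in the sources used here. *Plcg2*, the paralogue used by B cells, had 25 and 31, within the olfactory receptor range.

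In the diacylglycerol arm, *Rasgrp1* had the lowest ratio of the 10 members. It encodes the exchange factor that activates Ras in thymocytes, and is transcribed from the minus strand of chromosome 2 between 117105729 and 117168737. The gene had 1350 in WT, against 498 in *Cxxc1*-deficient cells, which is a fold reduction of 2.71 and a log2 ratio of -1.44. Both values were far above the olfactory receptor genes. The log2 ratio was -0.44 to -1.49 over the scalings and the subtraction of the olfactory receptor median, lower in *Cxxc1*-deficient cells in each. Still, 73 of the 125 genes of its band had a lower ratio, which places *Rasgrp1* near the middle of genes of its level. The paralogues *Rasgrp2*, with 57 in WT, against 47 in *Cxxc1*-deficient cells, *Rasgrp3*, with 36 and 46, and *Rasgrp4*, with 35 and 37, lay within the olfactory receptor range.

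*Prkcq* encodes protein kinase C theta, which in T cells links diacylglycerol to NF-κB and AP-1, and lies between 11093740 and 11222853 on chromosome 2, plus strand. The gene had 245 in WT, against 114 in *Cxxc1*-deficient cells, which is a fold reduction of 2.15 and a log2 ratio of -1.10. This was close to the median of its band, where 649 of 1605 genes had a lower ratio. The related gene *Prkch* had 140 and 66, with a log2 ratio of -1.08, so the ratios of these genes for calcium-independent kinases differed by 1.01-fold. The classical kinase gene *Prkcb* had 965 and 490, a fold reduction of 1.97, and 106 of the 125 genes of its band had a lower ratio.

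The diacylglycerol kinases, which remove diacylglycerol and so limit this arm, were less reduced than *Rasgrp1* as deposited. *Dgka* had 855 in WT, against 771 in *Cxxc1*-deficient cells, which is a log2 ratio of -0.15, and only 5 of the 125 genes of its band had a higher ratio. *Dgkz* had 157 and 105, with a log2 ratio of -0.58. The ratio of *Rasgrp1* lay 2.44-fold below that of *Dgka* and 1.81-fold below that of *Dgkz*, distances that no scaling of a library changes. *Dgka* is in the band of *Rasgrp1*, but *Dgkz* is in a lower band, where 1246 of the 1605 genes had a lower ratio. The distance to *Dgkz* therefore does not take level into account. The direction for *Dgka* itself is not fixed by these data, since a factor of 1.31 on the *Cxxc1*-deficient library, as with the same 75th percentile, makes it higher there.

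*Itpr1* encodes an IP3 receptor, the channel through which calcium leaves the endoplasmic reticulum, and lies between 108163112 and 108501103 on chromosome 6, plus strand. The gene had 165 in WT, against 88 in *Cxxc1*-deficient cells, which is a log2 ratio of -0.91. In *Cxxc1*-deficient cells 2 olfactory receptor genes reached at least 88. Of the 1605 genes of its band, 918 had a lower ratio, so that *Itpr1* lay near the band's median of -1. The direction turned (log2 0.09) with the same median over genes whose mean was at least 100. *Itpr2* had 255 in WT, against 172 in *Cxxc1*-deficient cells, which is a log2 ratio of -0.57, and 620 of the 703 genes of its band had a lower ratio. The ratios of *Itpr1* and *Itpr2* differed by 1.26-fold. *Itpr3* had 32 and 38, within the olfactory receptor range.

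Calcium entry is represented by *Stim1*, the sensor of the calcium store, and *Orai1*, the pore. *Stim1* lies on the plus strand of chromosome 7 from 109416338 to 109585362 and had 105 in WT, against 59 in *Cxxc1*-deficient cells. The log2 ratio was -0.83, and 1059 of the 3657 genes of its band had a lower ratio. As for *Plcg1*, the value in *Cxxc1*-deficient cells was reached by some olfactory receptor genes, 52 of 1122, and the direction turned (log2 0.17) with the same median over genes whose mean was at least 100. *Stim2* had 94 and 62, a log2 ratio of -0.60, which differed from that of *Stim1* by 1.17-fold.

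*Orai1* lies on the plus strand of chromosome 5 from 123465083 to 123480459 and had 33 in both libraries. This value was reached by 340 of the 1122 olfactory receptor genes in WT and by 381 in *Cxxc1*-deficient cells, so a difference in *Orai1* could not be read at this level. *Orai2* had 66 in WT, against 26 in *Cxxc1*-deficient cells, and *Orai3* had 65 and 31. All 4 values lay within the olfactory receptor range, and those in *Cxxc1*-deficient cells were reached by 498 and 396 of the 1122 genes. As deposited, both were at least 2-fold lower, as were 6.31% of the 11523 genes with a mean from 20 to 50, and with values at this level the size of the difference could not be read.

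*Ppp3ca*, for a catalytic subunit of calcineurin, lies on the plus strand of chromosome 3 from 136333088 to 136600691. It had 53 in WT, against 50 in *Cxxc1*-deficient cells, values reached by 59 and 135 of the 1122 olfactory receptor genes. The log2 ratio was -0.08, above the upper quartile of its band (-0.16), but its mean of 51.5 is near the lower edge of that band, and the median of the band beneath was 0. The catalytic subunit with a clear signal was *Ppp3cb*, with 613 in WT, against 233 in *Cxxc1*-deficient cells, which is a fold reduction of 2.63. Within its band, 270 of the 703 genes had a lower ratio, so that *Ppp3cb* lay within the quartiles. The regulatory subunit gene *Ppp3r1* had 728 and 226, a fold reduction of 3.22, and 137 of the 703 genes of its band had a lower ratio. *Ppp3r1* shares 462 exon bases with *Wdr92* on the same strand, which had 60 and 41. *Ppp3cc* had 54 and 29.

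The ratios of the NFAT genes differed from each other before level was taken into account. *Nfatc3* lies on the plus strand of chromosome 8 from 108582740 to 108654437 and had 1399 in WT, against 645 in *Cxxc1*-deficient cells, which is a fold reduction of 2.17 and a log2 ratio of -1.12. *Nfatc1*, between 80802944 and 80909810 on chromosome 18, minus strand, had 137 and 114, a fold reduction of 1.20 and a log2 ratio of -0.27. *Nfatc2*, between 168301910 and 168427157 on chromosome 2, minus strand, had 82 in both. The value of *Nfatc2* lay above all olfactory receptor genes in WT, of which the highest had 81, and was reached by 3 of them in *Cxxc1*-deficient cells, whereas *Nfatc1* and *Nfatc3* were above all of them in both libraries. With *Nfatc2* thus at the edge of the olfactory receptor range, the ratio of *Nfatc3* lay 2.17-fold below that of *Nfatc2* and 1.80-fold below that of *Nfatc1*, and the ratios of *Nfatc1* and *Nfatc2* differed by 1.20-fold. These distances do not take level into account. Above the medians of their bands, *Nfatc3*, *Nfatc1* and *Nfatc2* lay by 0.70, 0.73 and 0.53 on the log2 scale, and so close to each other. Under the same 75th percentile, *Nfatc1* turned to a higher value in *Cxxc1*-deficient cells (log2 0.12) and *Nfatc2* had a log2 ratio of 0.39, while *Nfatc3* stayed lower (-0.73).

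Beside genes of their level, all 3 NFAT members were on the higher side. Of the 39 genes whose mean was at least 1000, 33 had a lower ratio than *Nfatc3*. Its mean of 1022 is near the edge of that band, and its log2 ratio was also above the upper quartile of -1.24 of the genes from 500 to 1000. Of the 1605 genes of the band of *Nfatc1*, 1450 had a lower ratio, and of the 3657 genes of the band of *Nfatc2*, 3022. All 3 lay above the upper quartiles of their bands, which were -1.23, -0.63 and -0.16 in the same order. *Nfatc3* shares 219 exon bases with *Esrp2* on the other strand, which had 59 and 21. *Nfat5*, the family member that responds to osmotic stress and is not controlled by calcineurin, had 274 and 199, a log2 ratio of -0.46, and 634 of the 703 genes of its band had a lower ratio. *Nfatc4* had 32 in both libraries, within the olfactory receptor range.

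**Figure D2:**
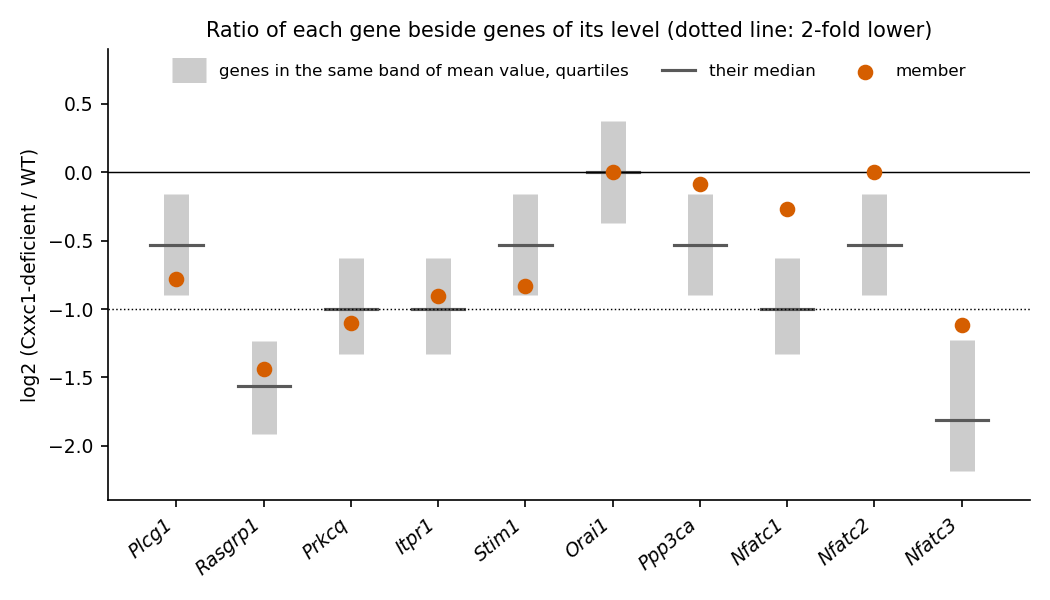
Log2 ratio of the Cxxc1-deficient to the WT value of each gene (points) beside the genes of the same band of mean value (bar, quartiles; line, median). Plcg1, Rasgrp1, Prkcq, Itpr1, Stim1 and Orai1 lie within the quartiles of their bands, and Ppp3ca, Nfatc1, Nfatc2 and Nfatc3 lie above them; the zero line is that of the values as deposited and would move with another scaling.

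The other genes of the pathway were followed in 4 lists with 63 genes, all in the table. At least 2-fold lower were 19 of the 63 and 0 were at least 2-fold higher, beside 17.4% and 5.89% of all genes. Their median log2 ratio was -0.62, which turned to 0.04 with the same sum and to 0.38 with the same median over genes whose mean was at least 100. Relative to the medians of their bands, 36 were lower and 25 higher, with a median difference of -0.08, so that the lists as a whole were close to other genes of their level. Of the 25 genes whose mean was at least 100, 13 were at least 2-fold lower, beside 56.8% of all 2472 genes of that level. Of the 19 genes at least 2-fold lower, 12 had a value in *Cxxc1*-deficient cells that did not exceed the highest olfactory receptor gene, and the size of their fold reductions rests on such values.

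Of the 19 genes of the list on phospholipase C, diacylglycerol and PKC, 5 were at least 2-fold lower, with a median log2 ratio of -0.58. The lowest ratio belonged to *Bcl10*, an adaptor on the way from protein kinase C theta to NF-κB. It had 197 in WT, against 38 in *Cxxc1*-deficient cells, which is a fold reduction of 5.18, and 13 of the 1605 genes of its band had a lower ratio. *Malt1*, which encodes the protease that BCL10 binds, had 97 and 54, a fold reduction of 1.80. *Bcl10* stayed lower under all 5 scalings, whose largest factor on the *Cxxc1*-deficient library was 2, although its value there was reached by 296 of the 1122 olfactory receptor genes. *Prkca* had 67 in both, within the olfactory receptor range.

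Of the 19 genes of the list on IP3 and calcium, 5 were at least 2-fold lower, with a median log2 ratio of -0.63. The lowest ratio belonged to the calmodulin gene *Calm2*, with 237 in WT, against 54 in *Cxxc1*-deficient cells, which is a fold reduction of 4.39. The value of 54 was reached by 95 of the 1122 olfactory receptor genes. *Calm3* had 151 and 83, a fold reduction of 1.82. Both genes encode the same protein, and the share of their reads lost to unique mapping is unknown, so these values are uncertain. *Tespa1*, which supports IP3 receptor signalling in thymocytes, had 211 and 114. *Atp2a2* and *Atp2a3*, for the pumps that refill the calcium store, had 161 and 71 and 162 and 105.

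Of the 15 genes of the list on calcineurin and calmodulin-dependent kinases, 4 were at least 2-fold lower, with a median log2 ratio of -0.58. Besides *Ppp3r1* and *Ppp3cb*, these were *Fkbp1a*, for the protein through which tacrolimus blocks calcineurin, with 174 in WT, against 55 in *Cxxc1*-deficient cells, and *Camk4*, for a kinase of thymocytes, with 929 and 369. The value of 55 for *Fkbp1a* was reached by 87 of the 1122 olfactory receptor genes. In their bands, 164 of 1605 genes had a lower ratio than *Fkbp1a* and 84 of 125 had a lower ratio than *Camk4*. The calcineurin inhibitor genes *Rcan1*, a known target of NFAT, and *Rcan3* had 55 and 44 and 56 and 49, within the olfactory receptor range. *Camk2d* had 121 and 97, a log2 ratio of -0.32, and 1421 of the 1605 genes of its band had a lower ratio.

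Of the 10 genes of the list on NFAT and its kinases, 5 were at least 2-fold lower, with a median log2 ratio of -0.84. The 3 with the lowest ratios encode kinases that phosphorylate NFAT and so favour its export from the nucleus. *Csnk1a1* had 635 in WT, against 161 in *Cxxc1*-deficient cells, which is a fold reduction of 3.94. *Dyrk2* had 108 and 29, a fold reduction of 3.72 in which the lower value was reached by 480 of the 1122 olfactory receptor genes. *Gsk3b* had 509 and 176, a fold reduction of 2.89. Its paralogue *Gsk3a* had 92 and 101, just above the highest olfactory receptor genes. *Dyrk1a* had 266 and 133, a fold reduction of 2, and the scaffold gene *Homer3* had 51 and 25. *Csnk1a1*, *Dyrk2* and *Gsk3b* had ratios below those of all 3 NFAT members, an order that no scaling of a library changes, while the ratio of *Dyrk1a* lay between those of *Nfatc3* and *Nfatc1*. This order does not take level into account. Of the 703 genes in the band of *Csnk1a1* and *Gsk3b*, 61 and 190 had a lower ratio. In the band of *Dyrk2*, 84 of 3657 did. *Gsk3b* thus lay within the quartiles of its band. Among the genes named in the lists, *Rasgrp2*, *Itpr3*, *Dgka*, *Dgkz*, *Prkca*, *Camk4*, *Dyrk2* and *Gsk3a* share exon bases with a gene on the other strand, so their values are uncertain to that extent. Overlaps were not searched for *Rasgrp3*, *Rasgrp4*, *Tespa1*, *Atp2a2*, *Atp2a3*, *Rcan1*, *Homer3* and *Dyrk1a*.

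**Figure D3:**
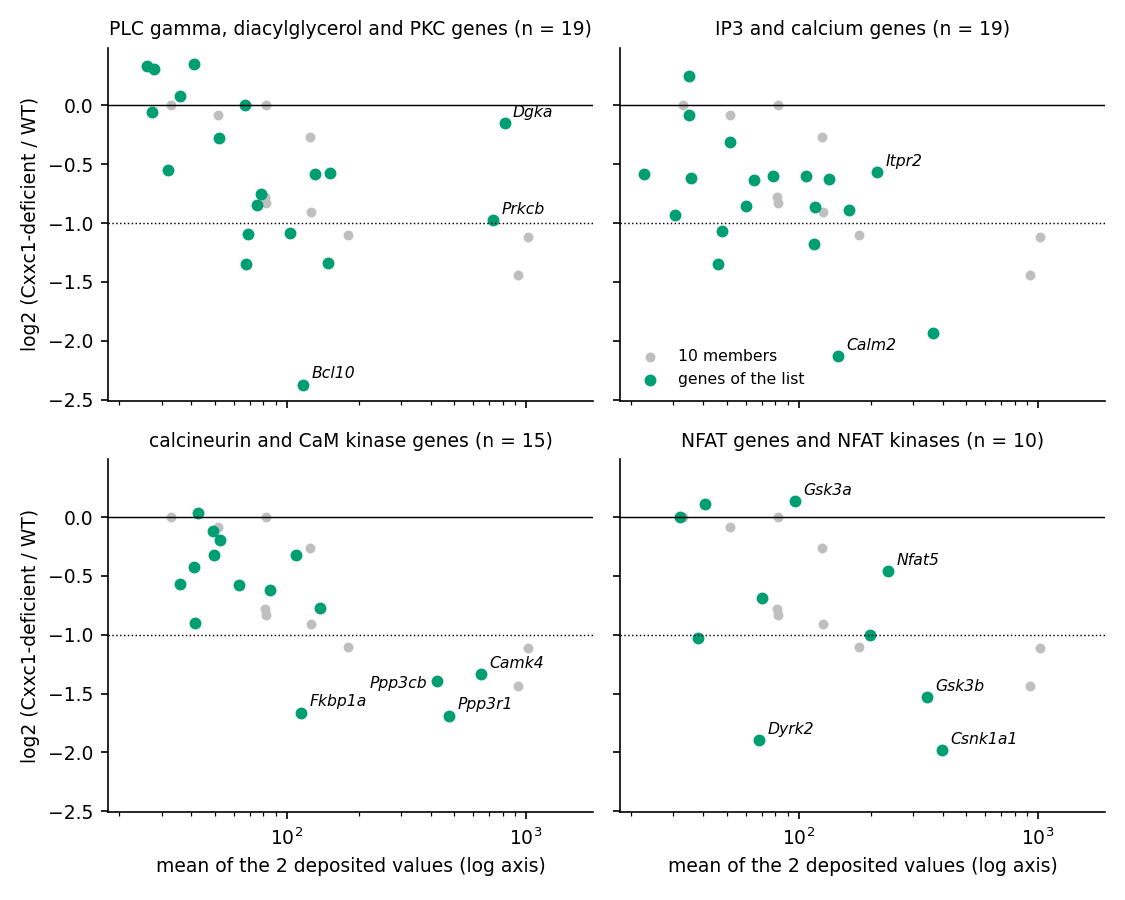
Log2 ratio of the Cxxc1-deficient to the WT value against the mean of both deposited values (log axis) for 63 other pathway genes in 4 lists (green), with the 10 members in grey in each panel and the dotted line at 2-fold lower. Bcl10, Calm2, Csnk1a1 and Dyrk2 lie lowest in their levels and Dgka stands apart from other genes of high mean; the zero line is that of the values as deposited, and genes close to it change direction with the scaling.

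**Figure D4:**
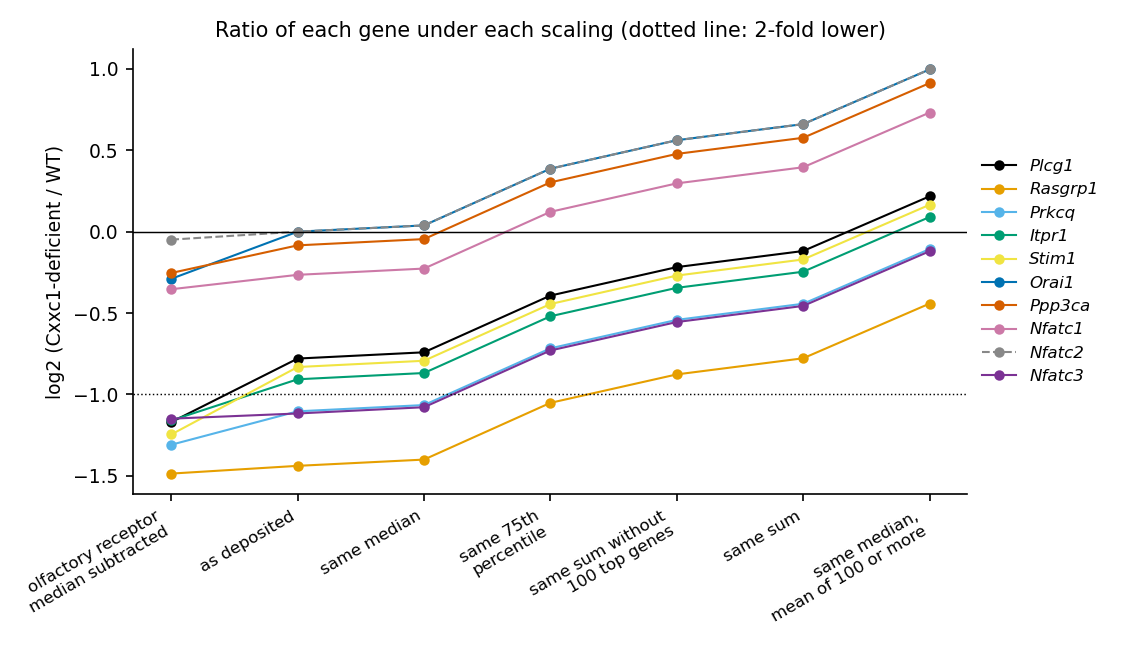
Log2 ratio of the Cxxc1-deficient to the WT value of each member (lines) as deposited, under 5 scalings of the libraries, and with the median of olfactory receptor genes subtracted. The lines of the scalings are parallel, and Orai1 and Nfatc2 coincide in them. Rasgrp1, Prkcq and Nfatc3 stay under 0 throughout while Plcg1, Itpr1, Stim1, Orai1, Ppp3ca, Nfatc1 and Nfatc2 cross it.

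With the median of olfactory receptor genes subtracted from each library, which lowers the values close to it most, 6 members were at least 2-fold lower in *Cxxc1*-deficient cells, where 37.4% of all genes were. The added genes were *Plcg1*, with a log2 ratio of -1.17, *Itpr1*, with -1.16, and *Stim1*, with -1.25. *Nfatc3* (-1.15) and *Prkcq* (-1.31) moved by less, and *Nfatc1* (-0.35) and *Nfatc2* (-0.05) stayed close to their values as deposited. *Orai1* (-0.29) and *Ppp3ca* (-0.25) rested on what little remained above that median. The ratio of *Nfatc3* was thus below those of *Nfatc1* and *Nfatc2* after this subtraction as well, an order that again does not take level into account.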

How the data were processed

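RNA-seq of DP thymocytes was analysed from 1 WT and 1 *Cxxc1*-deficient library, grouped by their titles. The authors extracted total RNA, made mRNA libraries and mapped the reads to mm9, keeping uniquely mapped reads for the Partek Genomic Suite. The submitters' processing notes also name CASAVA 1.8.2 and Bowtie 1.0.1. What the authors deposited is a score, namely a normalized expression level of each gene that was rounded to a whole number. Its normalization and gene annotation are not given in the sources used here, and the values are not read counts, so no count model or counting interval was used.

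Ratios were taken between deposited values with a floor of 1, and 2-fold was the threshold, as in the study. With 1 library per genotype no test was run. Values were set beside all genes and beside genes in bands of mean value with edges at 20, 50, 100, 200, 500 and 1000. The members, lists and alternatives (5 scalings, olfactory receptor subtraction, pseudocounts of 1 and 10, filters and thresholds) were chosen with earlier results of these data known. The text names all members, chosen relatives of them, *Cxxc1* and, per list, the 2 lowest and 2 highest ratios at a mean of at least 50. *Rasgrp3*, *Rasgrp4*, *Prkcb*, *Dgkz*, *Malt1*, *Calm3*, *Tespa1*, *Atp2a2*, *Atp2a3*, *Camk4*, *Rcan1*, *Gsk3b*, *Homer3* and *Dyrk1a* were added with their values in view. Of the genes this rule names, 3 are not reported here. The code was tested on simulated libraries. Python 3.11.15, numpy 2.4.6, pandas 2.3.3 and matplotlib 3.10.9 were used.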

Additional observations from a re-analysis of the deposited data

How the results depend on the processing

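As deposited, 3 of the 10 members and 19 of the 63 other pathway genes were at least 2-fold lower in Cxxc1-deficient cells, with median log2 ratios of -0.81 and -0.62. The counts were 1 and 9 with equal 75th percentiles, 0 and 7 with equal sums, 0 and 7 with equal sums without the 100 highest genes, 0 and 2 with the same median over genes of mean 100 or more, 6 and 36 after subtraction of the olfactory receptor median, 6 and 36 at 1.5-fold and 0 and 7 at 3-fold. The share of all genes called was 17.4% as deposited and, in the same order, 8.76%, 5.51%, 6.44%, 3.34%, 37.4%, 31.9% and 6.30%. The medians, in the same order of members and other genes, were -0.77 and -0.58 with equal medians of genes above 0 in each library, -0.42 and -0.23 with equal 75th percentiles, -0.14 and 0.040 with equal sums, -0.24 and -0.059 with equal sums without the 100 highest genes, 0.19 and 0.38 with the same median over genes of mean 100 or more, -1.15 and -1.08 after the subtraction, -0.80 and -0.61 with a pseudocount of 1, and -0.71 and -0.55 with a pseudocount of 10. Over the other genes of mean 50 or more, the median was -0.85. The reversals under the scalings follow from the factor applied to the Cxxc1-deficient library, up to 2. The counts were within 1.5 times the main count with equal medians of genes above 0 in each library and with both pseudocounts, and, for the other pathway genes, with both filters. No paired analysis was possible because there is 1 library per genotype. The number of reads is unknown, so the precision of each value is unknown, and a value within the olfactory receptor range does not show a level of its own.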
